A study of Sus scrofa with 6 samples.

Results

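The core autophagy conjugation and initiation genes were 10 genes chosen by name: ULK1 and WIPI1, which act at the start of autophagosome formation, ATG7, ATG3, ATG12 and ATG5, which carry out the conjugation reactions, and MAP1LC3B, GABARAP, GABARAPL1 and GABARAPL2, the small proteins that are conjugated. Of the 31908 gene IDs listed for the series, 10 were these genes; 9 were found by the listed gene name and GABARAP, whose name field was blank, by its description. They were compared between 3 libraries of IPEC-J2 cells given PBS (CON) and 3 libraries of IPEC-J2 cells treated with CDCA at 50 μM, each collected after 24 h. IPEC-J2 is a non-transformed epithelial line from the small intestine of the pig, and CDCA (chenodeoxycholic acid) is a primary bile acid made in the liver. The design had 1 cell line, 1 dose and 1 time point.

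Autophagy is the process by which a cell wraps part of its cytoplasm in a double membrane, the autophagosome, and delivers it to the lysosome for breakdown. The kinase ULK1 starts the process when nutrients or energy are short, WIPI proteins read the lipid PI3P on the forming membrane, and a pair of ubiquitin-like conjugation systems then attaches proteins of the ATG8 family (the LC3 and GABARAP subfamilies) to that membrane. In the intestinal epithelium autophagy is known for its part in defence against bacteria and in secretion by Paneth cells. Levels of mRNA do not measure autophagic flux, which depends on protein modification and lysosomal turnover.

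Of the 10 genes, 4 were significantly higher in the CDCA group than in the CON group: ULK1, ATG12, MAP1LC3B and GABARAP. The test was limma on log2(TPM + 1), fitted over the 8708 genes whose mean reached 1 TPM, and a gene passed where its FDR (Benjamini-Hochberg) was under 0.05. WIPI1, ATG7, ATG5 and GABARAPL2 were tested and did not pass, ATG3 and GABARAPL1 lay under 1 TPM and were not tested, and 0 of the 8 tested genes were lower, at an unadjusted p under 0.05 as well. The response was broad in these cells, with 29.3% of all tested genes higher and 23.9% lower in CDCA (53.2% in all), so the 4 of 8 that were higher are to be read against that background. With the added limit of a log2 fold change over 1, ULK1 and ATG12 were called higher, where 3.51% of all tested genes were and 3.9% were called lower. In 4 of the 8 genes every CDCA library lay above every CON library, against 33.7% of all tested genes, and in the other 4 the libraries overlapped, so 0 of 8 had CDCA below CON, against 27.8%. The median log2 fold change was 0.36 over the 8 tested genes and 0.05 over all tested genes. ATG12 and WIPI1 reached the limit of 1 TPM only through the CDCA libraries, since their CON means were 0.81 and 0.943 TPM, so the call of ATG12 is no support. Of the 6 genes whose mean reached 1 TPM in both groups, 3 were higher and 1, ULK1, was also over the fold limit. Every CDCA library lay above every CON library in 3 of the 6, and the median of their log2 fold changes was 0.36. The share of all genes under this filter was not computed, so 29.3%, 3.51% and 33.7% are not a matched background for these 6.

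The listed TPM summed to between 351770 and 366073 per library, whereas a library in full would sum to 1000000, and no read counts were used here. The TPM of a gene can thus leave out transcripts that the table does not hold, and the depth behind it is unknown. The epithelial markers EPCAM, KRT8 and KRT18 had means of 141, 217 and 70.4 TPM over the 6 libraries, whereas CDH1 (0.465 TPM) and VIL1 (0.247 TPM), also epithelial markers, were near 0 and KRT19 was not matched. Of the leukocyte markers PTPRC was at 0.0017 TPM and LYZ at 18.1 TPM, and the 5 leukocyte markers summed to 18.9 to 20.5 TPM in the CON libraries and 20.6 to 23.3 TPM in the CDCA libraries, while the 5 matched epithelial markers of 6 summed to 409.8 to 422.5 TPM and 417.5 to 459 TPM. The 5 fibroblast markers summed to 1.34 to 1.82 TPM (CON) and 0.93 to 1.10 TPM (CDCA), and the 3 matched endothelial markers of 4 to 2.20 to 2.69 TPM (CON) and 1.87 to 2.33 TPM (CDCA). The part of these levels in the results was not tested. The study calls the libraries of a group biological replicates, but the sources used here do not say that they came from separate cultures, so p-values measure only the spread between these libraries, which may be technical.

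The mRNAs encoded by mitochondrial DNA made up 13.8% to 15.0% of what was listed for each CON library and 2.90% to 3.45% of what was listed for each CDCA library. TPM are shares of a total, so a smaller share for these mRNAs leaves a larger one for the rest. With the listed totals computed without them, the median log2 fold change of all tested genes moved from 0.05 to -0.08, and the share of higher genes among those that passed moved from 55.0% to 38.7%. Only the listed part of each library entered these totals, so the shift can be larger than it would be for full libraries. The log2 fold changes under that scaling were 1.21 for ULK1, 1.51 for ATG12, 0.37 for MAP1LC3B and 0.59 for GABARAP, and the highest of their limma FDR values was 0.016.

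**Figure D1:**
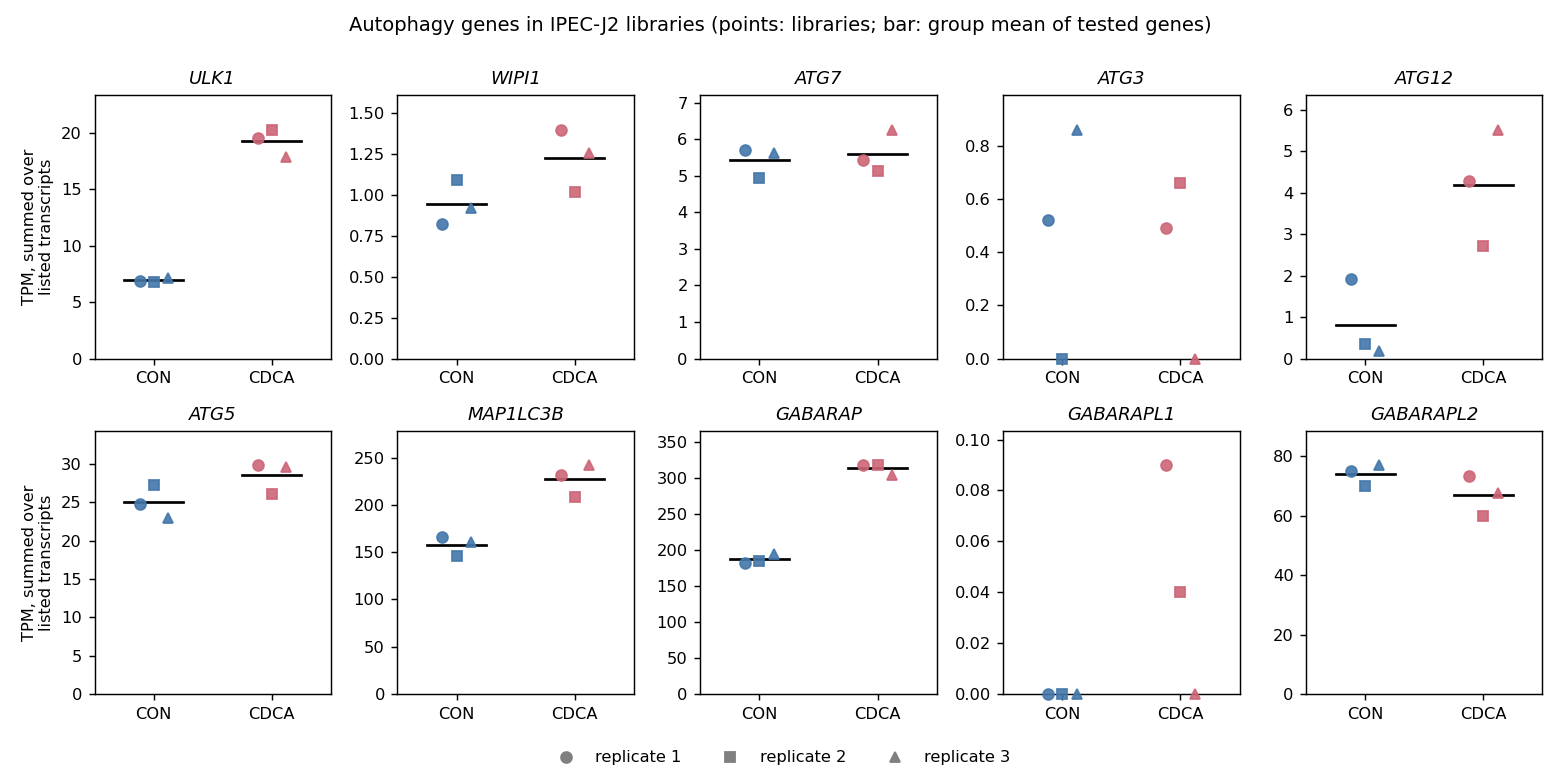
TPM of each of the 10 genes, summed over its listed transcripts, in the 3 CON and the 3 CDCA libraries; points are libraries, bars are group means (drawn for tested genes only), and each panel has its own linear axis from 0. The CDCA libraries lie above all CON libraries for ULK1, ATG12, MAP1LC3B and GABARAP, and the groups overlap for the other 6 genes.

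ULK1 encodes the kinase of the complex that initiates autophagy, and its activity is set by phosphorylation from mTORC1 and AMPK. The CON libraries held 6.89, 6.75 and 7.11 TPM of ULK1, and the CDCA libraries 19.6, 20.3 and 17.9 TPM. The groups were far apart, and the spread within each was small. The mean rose from 6.92 ± 0.18 to 19.3 ± 1.2 TPM (SD, n = 3 each), a ratio of 2.78. The log2 fold change was 1.35 (SE 0.064, limma FDR 1.4e-05), which lay at percentile 98.2 of all tested genes. Leaving out any 1 library gave values from 1.32 to 1.40. In bulk libraries a change in how many cells hold an mRNA and a change in its amount per cell cannot be told apart.

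WIPI1 binds PI3P and helps to recruit the conjugation machinery to the forming membrane. Its levels were low throughout, with 0.82, 1.09 and 0.92 TPM in the CON libraries against 1.40, 1.02 and 1.26 TPM in the CDCA libraries. The lowest CDCA library lay below the highest CON library, so the groups overlapped. The log2 fold change was 0.20 with a 95% interval from -0.11 to 0.50 (limma FDR 0.24), and WIPI1 was among the weakest of the tested genes, at percentile 2.07 of mean TPM.

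ATG12 is the ubiquitin-like protein that is joined to ATG5 by ATG7 and ATG10, and the ATG12–ATG5 conjugate then directs the lipidation of the ATG8 family. For ATG12 the CON libraries held 1.91, 0.34 and 0.18 TPM, and the CDCA libraries 4.28, 2.72 and 5.52 TPM. All 3 CDCA libraries lay above the CON libraries, but CON replicate 1 stood well above the other CON libraries. The ratio of means was 5.15 and the log2 fold change was 1.60 (SE 0.38, 95% interval 0.70 to 2.50, limma FDR 0.011). These values are given as a description, since ATG12 was tested only because the CDCA libraries were high. The interval was the widest of the 8 tested genes. With CON replicate 1 left out the log2 fold change was 2.0, with CON replicate 3 left out it was 1.35 (limma FDR 0.037), and when 0.1 TPM was added before the log it was 2.71. Taken from its most abundant transcript alone it was 1.24 and did not pass (limma FDR 0.069 over genes).

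ATG5, the partner of ATG12, had 24.7, 27.2 and 23.0 TPM in the CON libraries against 29.9, 26.1 and 29.6 TPM in the CDCA libraries. The groups overlapped through CON replicate 2 and CDCA replicate 2. The log2 fold change was 0.19 with a 95% interval from -0.01 to 0.38 (limma FDR 0.094). With CDCA replicate 2 left out it was 0.25 and just passed (limma FDR 0.049), whereas with totals computed without the mtDNA-encoded mRNAs it was 0.037 (limma FDR 0.74).

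ATG7 is the E1-like enzyme that activates both ATG12 and the ATG8 proteins. Its TPM were 5.69, 4.95 and 5.63 for CON, and 5.44, 5.12 and 6.26 for CDCA, with the groups overlapping. The log2 fold change was 0.04 with a 95% interval from -0.19 to 0.26 (limma FDR 0.75). That interval excludes a change of 2 times in either direction on this scale. The sign of the value was negative with totals computed without the mtDNA-encoded mRNAs (-0.091), under median ratio scaling (-0.0012) and with CON replicate 2 (-0.015) or CDCA replicate 3 (-0.031) left out.

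ATG3 is the E2-like enzyme that passes ATG8 proteins to the membrane lipid phosphatidylethanolamine. Its 4 listed transcripts summed to 0.52, 0 and 0.86 TPM in the CON libraries, and 0.49, 0.66 and 0 TPM in the CDCA libraries. A library of each group was listed at 0, no direction could be read, and ATG3 was not tested. ATF4, a transcription factor mRNA that most cells express, and picked once its value had been seen, was likewise listed at a mean of 0.018 TPM, so values near 0 in this table do not show that a gene was silent.

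MAP1LC3B encodes LC3B, the ATG8 protein most often used as a marker of autophagosomes. The CON libraries held 166, 146 and 161 TPM of it, and the CDCA libraries 232, 208 and 242 TPM. Every CDCA library lay above every CON library. The mean rose from 158 ± 10 to 227 ± 18 TPM (SD, n = 3 each), a ratio of 1.44, and the log2 fold change was 0.53 (SE 0.072, limma FDR 0.0011). Leaving out any 1 library gave values from 0.47 to 0.59.

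GABARAP, the founding protein of the other ATG8 subfamily, had the highest listed TPM of the 10 genes. It had 183, 185 and 194 TPM in the CON libraries against 318, 318 and 305 TPM in the CDCA libraries, and the groups were far apart. The mean rose from 187 ± 6.3 to 314 ± 7.6 TPM (SD, n = 3 each), a ratio of 1.67. The log2 fold change was 0.74 (SE 0.039, limma FDR 2.1e-05), at percentile 91.7 of all tested genes.

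GABARAPL2 (also known as GATE-16) belongs to the same subfamily as GABARAP. Its TPM were 75.2, 70.1 and 77.1 for CON, and 73.5, 59.9 and 67.5 for CDCA. The groups overlapped, through CDCA replicate 1. The log2 fold change was -0.15 with a 95% interval from -0.34 to 0.04 (limma FDR 0.16). With totals computed without the mtDNA-encoded mRNAs it was -0.30 and passed as lower (limma FDR 0.030), whereas with CDCA replicate 2 left out it was -0.071 (limma FDR 0.40) and without CON replicate 3 as well -0.042. Under median ratio scaling it was -0.19 (limma FDR 0.080), and with the listed TPM rescaled to 1000000 it was -0.13 (limma FDR 0.30). It passed in 1 of 16 alternatives.

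GABARAPL1, the remaining ATG8 gene of the 10, had 1 listed transcript. It was listed at 0 in the 3 CON libraries and at 0.09, 0.04 and 0 TPM in the CDCA libraries, and was not tested. Reads that fit more than 1 gene are shared out by RSEM, and near-identical copies of these short genes, if the pig genome holds any, would make their single values less certain.

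**Figure D2:**
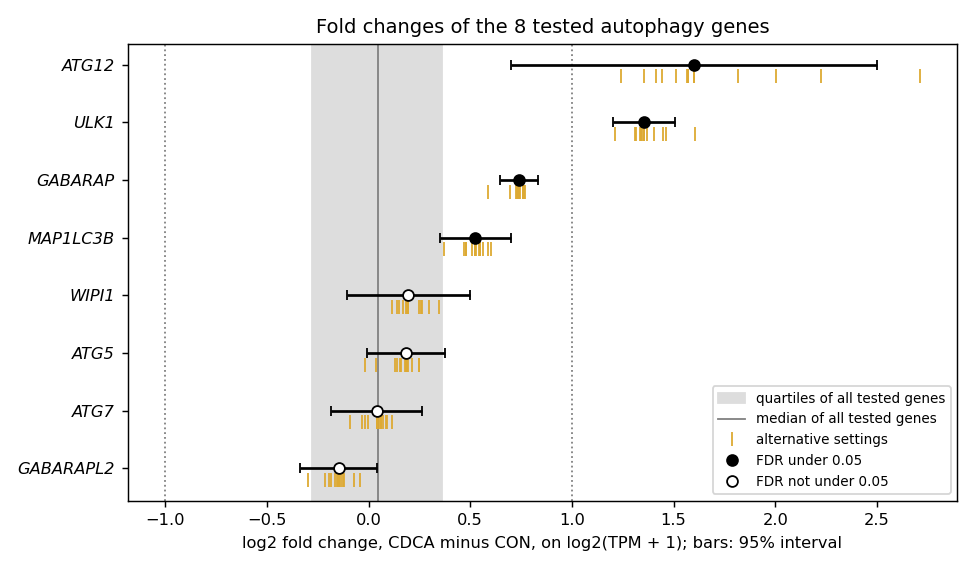
Log2 fold changes (CDCA minus CON, on log2(TPM + 1)) of the 8 tested genes with 95% intervals; filled points have an FDR under 0.05, yellow ticks are the values under alternative settings, the gray band holds the quartiles of all tested genes and the gray line their median. ULK1 and ATG12 lie beyond a log2 fold change of 1, GABARAP and MAP1LC3B lie between the band and 1, and the other 4 lie within the band.

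TPM is scaled for transcript length, so the listed levels can be set side by side, though a gene with transcripts outside the table would stand too low. In CON the order of listed TPM was GABARAP (187 TPM), MAP1LC3B (158 TPM), GABARAPL2 (74.1 TPM), ATG5 (25 TPM), ULK1 (6.92 TPM) and ATG7 (5.42 TPM), and each of these lay above the next without overlap of libraries. WIPI1, ATG12 and ATG3 followed, and their CON libraries overlapped. In CDCA the order of the 6 most abundant genes was the same, and ATG12 (4.17 TPM) overlapped with ATG7 (5.61 TPM). GABARAPL1 was last in both groups.

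Together with MAP1LC3A and MAP1LC3C, the other LC3 genes, the ATG8 family summed to 442 ± 18 TPM for CON and to 661 ± 17 TPM for CDCA (SD, n = 3 each). MAP1LC3A rose from 23.0 ± 2.4 to 52.7 ± 3.1 TPM (SD, n = 3), a log2 fold change of 1.16 (limma FDR 6.2e-05), whereas MAP1LC3C, named to complete the family, was listed at 0.01 TPM in 1 library and at 0 in the others. The makeup of the family differed between the groups. GABARAPL2 held 16.9%, 16.6% and 16.8% of the family's TPM in CON and 10.9%, 9.32% and 10.1% in CDCA. GABARAP went from 42.4% ± 1.4 to 47.5% ± 1.9 (SD, n = 3), MAP1LC3A from 5.2% ± 0.37 to 7.98% ± 0.67 (SD, n = 3), and MAP1LC3B from 35.6% ± 1.4 to 34.4% ± 2.0 (SD, n = 3), where the libraries of the groups overlapped for MAP1LC3B only.

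**Figure D3:**
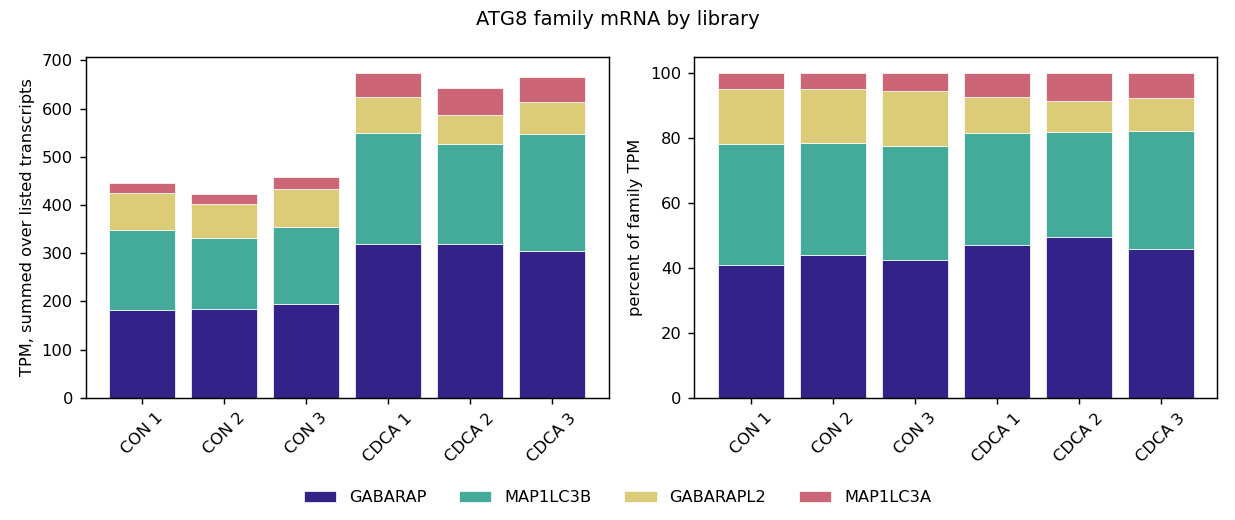
ATG8 family mRNA in each library, as TPM summed over listed transcripts (left) and as percent of the family's TPM (right), both on linear axes from 0. The stacks are taller in the CDCA libraries, and the share of GABARAPL2 is smaller there, at 9.32% to 10.9% against 16.6% to 16.9% in CON.

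A ratio of 2 genes within a library does not depend on how that library was scaled. GABARAP was listed at 2.43, 2.64 and 2.52 times the TPM of GABARAPL2 in CON and at 4.33, 5.31 and 4.52 times in CDCA. ULK1 was at 0.568, 0.531 and 0.527 times the TPM of ULK2, the related kinase, in CON and at 0.836, 0.871 and 0.756 times in CDCA. In both cases the groups did not overlap. These ratios were picked after the values were seen, so they are given as a description. An exact permutation of the libraries over 20 splits gave p = 0.1 for each of 4 ratios tried. The others were MAP1LC3A over MAP1LC3B and ATG12 over ATG5. With so few libraries that test cannot give a lower p, so it could not decide.

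The 10 genes had 40 listed transcripts, of which 35 were above 0 in any library and 13 reached a mean of 1 TPM. By limma over all 12205 transcripts at that level, 6 of the 13 were higher in CDCA and 0 lower (0 also at an unadjusted p under 0.05), where 23.1% of all tested transcripts were higher and 18.7% lower. With a log2 fold change over 1 it was 1 of the 13, the main ULK1 transcript, where 4% of all tested transcripts were called higher and 3.97% lower. The table gives no transcript IDs, so transcripts were ranked within each gene by mean TPM. The most abundant ULK1 transcript rose from 4.24 ± 0.71 to 14.9 ± 1.3 TPM (SD, n = 3 each), a log2 fold change of 1.61 (limma FDR 0.00019). Its share of the ULK1 TPM was 52.3% to 69.6% in the CON libraries and 74.9% to 79.0% in the CDCA libraries. The second most abundant went from 2.66 ± 0.51 to 4.30 ± 0.14 TPM (SD, n = 3), a log2 fold change of 0.54 (limma FDR 0.015). Both ULK1 transcripts thus rose.

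For MAP1LC3B, the most abundant transcript held 85.6% to 89.4% of the gene's TPM in every library, and its log2 fold change of 0.55 (limma FDR 0.0031) was close to that of the gene. Transcript 2 also rose (0.44, limma FDR 0.0078), while transcript 3 did not pass (0.21, limma FDR 0.053). ATG5 was spread over 4 transcripts of more than 1 TPM. The most abundant of them had a log2 fold change of -0.02 (limma FDR 0.93), and transcript 2 rose from 5.90 ± 0.90 to 8.25 ± 0.44 TPM (SD, n = 3; log2 fold change 0.43, limma FDR 0.025). ATG12 had 2 listed transcripts. The more abundant was listed at 0 in CON replicates 2 and 3, at 1.57 TPM in CON replicate 1 and at 1.63, 1.39 and 4.41 TPM in the CDCA libraries, and did not pass (limma FDR 0.082). The other had 0.34, 0.34 and 0.18 TPM in the CON libraries against 2.65, 1.33 and 1.11 TPM in the CDCA libraries, and lay just under the limit for testing. GABARAP had 1 listed transcript.

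**Figure D4:**
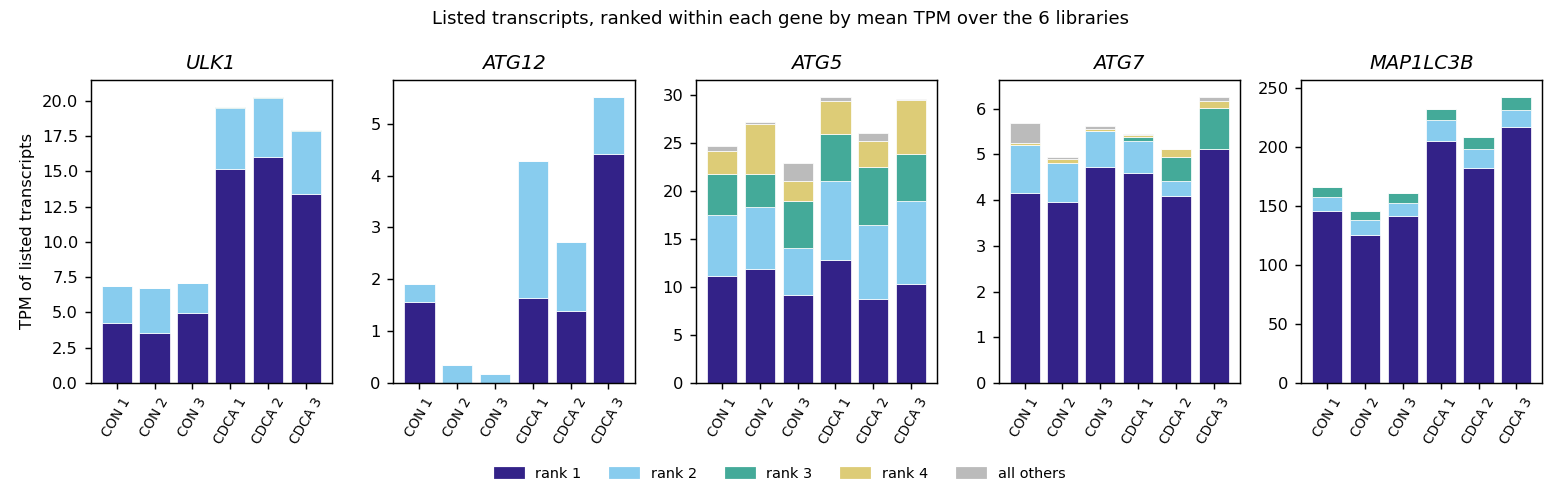
TPM of the listed transcripts of ULK1, ATG12, ATG5, ATG7 and MAP1LC3B in each library, stacked on linear axes from 0 and ranked within each gene by mean TPM. The rank 1 transcript of ULK1 makes up 74.9% to 79.0% of the CDCA stacks against 52.3% to 69.6% in CON, and that of ATG12 is at 0 in CON 2 and CON 3.

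The wider pathway was read from 9 lists of genes by role, which held 70 genes besides these 10. Of their 69 matched gene IDs, 58 were tested. Of these, 30 were higher in CDCA (51.7%, against 29.3% of all tested genes) and 3 were lower (5.17%, against 23.9%), with a median log2 fold change of 0.32 against 0.05. With totals computed without the mtDNA-encoded mRNAs, the counts were 21 higher and 6 lower, where 20.1% of all tested genes were higher and 31.9% lower. Among the genes that passed, EPG5 (named after its values were seen) and the less abundant of the DDIT3 gene IDs, both higher, and PRKAA2, lower, had a mean of at least 1 TPM only through the group where they were high. As the lists were written with earlier results of these data known, the counts are a description and no test was made of them.

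At initiation, RB1CC1 (FIP200), the scaffold of the ULK complex, rose from 6.62 ± 0.17 to 15.9 ± 0.89 TPM (SD, n = 3), a log2 fold change of 1.14 (limma FDR 2.4e-05). ULK2, named after its value was seen, rose with a log2 fold change of 0.83 (limma FDR 4.5e-05). ATG101, another subunit, had a value of -0.52 (limma FDR 0.056), and passed as lower in 4 of 15 alternatives. Among these were CDCA replicate 1 left out (limma FDR 0.040), totals without the mtDNA-encoded mRNAs (-0.62, limma FDR 0.029) and median ratio scaling (limma FDR 0.046). With CDCA replicate 3 left out it was -0.33 (limma FDR 0.11), and the FDR reached 0.16 when single libraries were left out. In the class III PI3K complex, which makes PI3P, 3 of 7 tested genes were higher and the other 4 did not pass. Its highest value was that of ATG14 (0.48, limma FDR 0.0022), the subunit that directs the complex to autophagy, and its lowest that of NRBF2 (-0.15, limma FDR 0.17), which passed as lower with totals computed without the mtDNA-encoded mRNAs (-0.28, limma FDR 0.028). The NRBF2 value was -0.081 (limma FDR 0.43) with CDCA replicate 3 left out.

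Among the PI3P effectors and proteins of membrane supply, 4 of 7 tested genes besides WIPI1 were higher and the other 3 did not pass. ATG2A, which transfers lipids to the growing membrane, rose from 7.19 ± 0.53 to 14.9 ± 0.98 TPM (SD, n = 3; log2 fold change 0.95, limma FDR 0.00010). ATG9A, the lipid scramblase carried by vesicles, had the lowest value (-0.23, limma FDR 0.30), and passed as lower with CDCA replicate 1 left out (-0.42, limma FDR 0.029). It was -0.13 without CDCA replicate 2 (limma FDR 0.61), -0.15 without CDCA replicate 3 (limma FDR 0.57) and -0.023 with the highest listed transcript (limma FDR 0.90). Of the other conjugation enzymes, 1 of 3 was higher and the other 2 did not pass. The ATG4 proteases, which trim ATG8 proteins before conjugation and release them afterwards, went both ways. ATG4B fell from 15.0 ± 1.8 to 11 ± 0.91 TPM (SD, n = 3; -0.41, limma FDR 0.013), and ATG4A rose with a log2 fold change of 0.43 (limma FDR 0.049). ATG4A passed in 1 of the 6 comparisons that left out a library, the one without CON replicate 1, and in the other 5 its limma FDR was up to 0.13.

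Of 12 tested genes of autophagosome fusion with the lysosome, 6 were higher and 1 lower. SNAP29, a SNARE protein of that fusion, rose from 8.36 ± 0.79 to 17.3 ± 0.78 TPM (SD, n = 3; 0.97, limma FDR 0.00010). VPS16 had the lowest value (-0.19, limma FDR 0.28), which lay between -0.29 and -0.13 with each library left out. The lower gene was RAB7A, the small GTPase of late endosomes, named after its value was seen. Its fall was slight (-0.10, limma FDR 0.046), and in the comparisons that left out a library its FDR stayed under 0.05 only without CON replicate 3. The value was -0.25 (limma FDR 0.0011) with totals computed without the mtDNA-encoded mRNAs and -0.15 (limma FDR 0.0098) under median ratio scaling.

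Transcription factors that are known to act on autophagy genes had 8 tested gene IDs, of which 6 were higher and the other 2 did not pass. DDIT3 (CHOP), a factor of the integrated stress response, was listed under 2 gene IDs. The more abundant went from 13.4 ± 0.90 to 208 ± 20 TPM (SD, n = 3; 3.86, limma FDR 1.8e-06) and the other from 0.223 ± 0.083 to 2.09 ± 0.11 TPM (SD, n = 3; 1.34, limma FDR 0.00016), and reads may be shared between them. The latter reached the limit of 1 TPM only through the CDCA libraries, so its place among the 6 is no support, and its value was 2.79 when 0.1 TPM was added before the log. CEBPB, a bZIP factor of the same response, rose from 41.8 ± 7.2 to 114 ± 9.4 TPM (SD, n = 3; 1.43, limma FDR 0.00018). TFEB, a master factor of lysosomal and autophagy genes, had a mean of 1.40 ± 0.62 TPM for CON and of 1.22 ± 0.17 TPM for CDCA (SD, n = 3 each; -0.08, limma FDR 0.75), and its value was above 0 with CON replicate 3 left out. The rest were named after their values were seen. TFE3 rose from 15.7 ± 1.2 to 28.1 ± 1.4 TPM (SD, n = 3; 0.80, limma FDR 0.00014). FOXO3 (0.43, limma FDR 0.0013) and FOXO1 (0.41, limma FDR 0.032) were higher, and MITF did not pass (0.47, limma FDR 0.070).

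Of 12 tested genes of nutrient and energy signaling to ULK1, 6 were higher and 1 lower. The list holds genes that restrain mTORC1 and genes that form or activate it, so the count has no single direction for autophagy. Of the latter, named after their values were seen, MTOR (0.24, limma FDR 0.0085), MLST8 (0.32, limma FDR 0.031) and RHEB (0.50, limma FDR 0.00023) were higher. SESN2, a leucine sensor that restrains mTORC1, rose from 1.77 ± 0.25 to 20.2 ± 0.43 TPM (SD, n = 3; 2.94, limma FDR 2.8e-06). The AMPK subunits went both ways. PRKAG1, a regulatory subunit, rose from 1.84 ± 0.50 to 4.95 ± 0.96 TPM (SD, n = 3; 1.07, limma FDR 0.0025), and PRKAA2, a catalytic subunit, fell from 1.99 ± 0.20 to 0.663 ± 0.34 TPM (SD, n = 3; -0.86, limma FDR 0.0052). PRKAA2 reached the limit of 1 TPM only through the CON libraries, where it was high, and its value was -1.54 when 0.1 TPM was added before the log. The following subunits were named after their values were seen. PRKAA1, the more abundant catalytic subunit, had means of 7.69 TPM for CON and 8.28 TPM for CDCA and did not pass (0.12, limma FDR 0.75). PRKAB2 rose from a mean of 19.3 to 28.4 TPM (0.54, limma FDR 0.0017), while PRKAB1 and PRKAG2 did not pass.

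**Figure D5:**
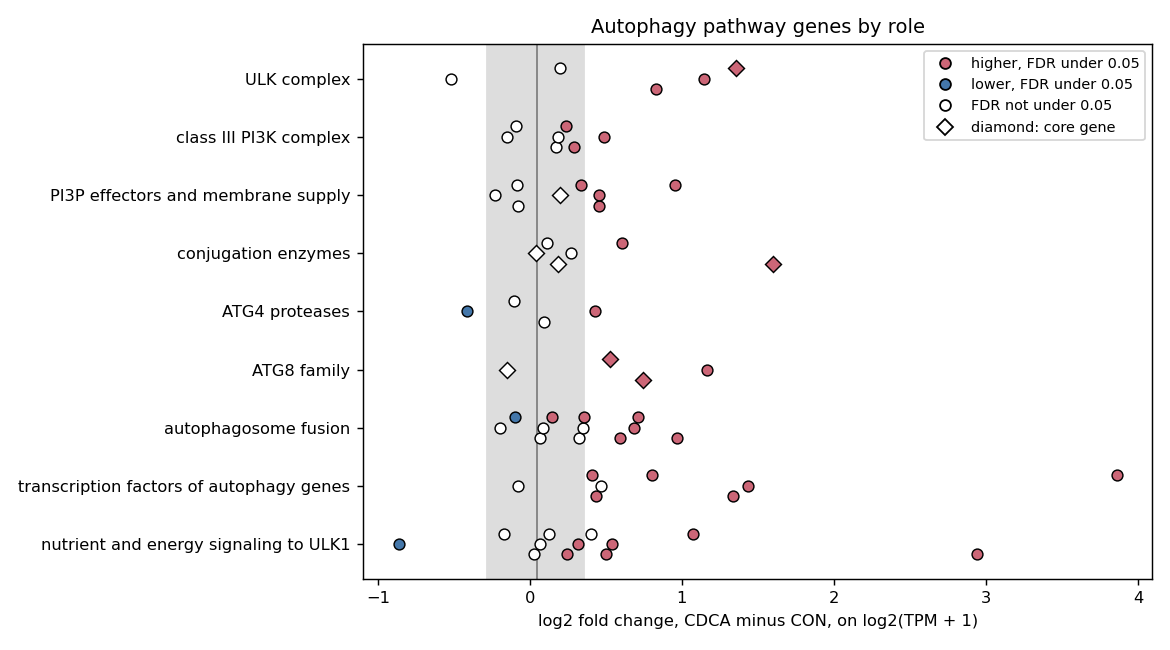
Log2 fold changes (CDCA minus CON, on log2(TPM + 1)) of the tested genes of 9 lists by role; diamonds are genes of the core set, red and blue points have an FDR under 0.05, the gray band holds the quartiles of all tested genes and the gray line their median. Red points outnumber blue ones in most lists, DDIT3 (3.86) and SESN2 (2.94) lie farthest to the right, and the 3 blue points are PRKAA2, ATG4B and RAB7A.

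The tested genes whose levels over the 6 libraries ran closest to those of MAP1LC3B, by the root mean square distance of centred log2(TPM + 1), were SLC33A1 (0.024), SCOC (0.033) and PPP2R3C (0.035). SLC33A1, for instance, had 14.6, 13.4 and 14.4 TPM in the CON libraries against 20.8, 18.9 and 22.1 TPM in the CDCA libraries. As in MAP1LC3B, replicate 2 was the lowest library of each group.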

How the data were processed

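The authors quantified RNA-seq reads of 6 IPEC-J2 libraries with RSEM and deposited TPM values, with 2 decimals, for 63041 transcripts without transcript IDs. The submitters' processing notes name Bowtie 0.12.2 and mm10, a mouse build, whereas the listed gene IDs are Ensembl pig IDs; the annotation release is not given in the sources used here, so no coordinates are given. TPM were summed per gene ID, and 17501 of 31908 IDs were given a symbol, first by Ensembl ID and otherwise by the deposited name. The comparison used limma 3.58.1 in R 4.3.3 (lmFit; trended eBayes) on log2(TPM + 1), with 8708 genes kept whose mean reached 1 TPM and with Benjamini-Hochberg adjustment; the steps were tested on simulated data. The edgeR test used in the study needs counts and was not run. Genes were named by a rule: the 10 genes, pathway genes called with a log2 fold change over 1 in size, the highest and lowest of each list, and the 3 genes nearest to MAP1LC3B; the rest of the ATG8 family was added to complete it, and others are said to be picked later. The genes, lists and tests were chosen with earlier results of these data known. Alternatives were a pseudocount of 0.1 TPM, no filter or a mean of 5 TPM, 3 other scalings, the highest transcript, no trend, a replicate block and each library left out; leaving out CON replicate 3 and CDCA replicate 2 together was added after seeing the data. A planned search of promoter motifs was not run.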

Additional observations from a re-analysis of the deposited data

How the results depend on the processing

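Of 125 alternative values of the 8 fold changes, 117 kept their sign and their side of the FDR limit of 0.05, 1 no longer passed, 2 newly passed and 5 changed sign. The sign changed for values near 0: ATG7 had -0.091 when the mtDNA-encoded mRNAs were left out of the totals, -0.0012 with median ratio scaling and -0.031 to 0.092 with each library left out, and ATG5 was at -0.019 with the highest listed transcript, with no other of the 8 changing sign. Of 310 alternative values of the named pathway genes, 278 kept sign and side, 24 no longer passed, 6 newly passed and 2 changed sign, both of TFEB, which lay between -0.25 and 0.11 with each library left out and at 0.17 without CON replicate 3 and CDCA replicate 2. Of the counts, 1 gene of the 10 was lower with totals without the mtDNA-encoded mRNAs, and 1 was called higher with a log2 fold change over 1 with a mean of at least 5 TPM (ATG12 was not tested there; 3.78% of all tested genes were called so) or with the highest listed transcript (3.89%). With each library left out, 4 to 5 of the 10 genes and 22 to 27 pathway genes were higher, where 25% to 27.2% of all tested genes were. Lower pathway genes numbered 1 with a mean of at least 5 TPM (30.6% of all tested genes were lower) and 6 with totals without the mtDNA-encoded mRNAs (31.9%). With the replicate number as a block, 4 of the 10 genes were higher and 0 lower by limma. In that fit 27 pathway genes were higher and 3 lower (26.6% and 21.8% of all tested genes), and ATG101 passed as lower (limma FDR 0.037). The correlations of same-numbered libraries' deviations were -0.04, -0.09 and -0.05. No pairing by number showed in these values, which cannot tell whether same-numbered libraries were handled together. The cause of these shifts was not tested. TPM keep no depth, so counting error could not be given.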

Other observations

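Within the CDCA group, replicate 2 was the lowest library for 6 of the 8 tested genes, all but ULK1 and GABARAP, and replicate 1 for 0 of them. Within the CON group, replicate 2 was the lowest for 4 of the 8. Without CDCA replicate 2, 5 of the 8 genes were higher in CDCA by limma (25.7% of all tested genes were), and without CON replicate 3 and CDCA replicate 2 together, 4 were (22.1%).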
